A study of Mus musculus with 21 samples.

Results

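The genes described here are the 5 G1 cyclins Ccnd1, Ccnd2, Ccnd3, Ccne1 and Ccne2, the kinase Cdk6, and the 4 CDK inhibitors Cdkn1a, Cdkn1b, Cdkn2a and Cdkn2b. They were taken by symbol from a table of 39396 genes, and all 10 were found and passed the filter on low counts that left 16575 genes for testing. RNA sequencing had been done on 21 mouse libraries, 3 from each of 7 groups. Line A2 gave 12 libraries in 4 groups and line D3 gave 9 in 3 groups. Ground-state mouse embryonic stem cells (mESCs) of either line grew in serum with 1000 U/mL of the cytokine LIF and with 2i, small-molecule inhibitors of the enzymes MEK and GSK3. The naive mESCs were ground-state cells from which 2i had been withdrawn for 4 days. EPL cells, early primitive ectoderm-like, were ground-state cells moved for 4 days to serum that held 400 uM L-proline and LIF reduced to 330 U/mL, with no 2i listed. EpiSCs, stem cells of the epiblast after implantation, existed for A2 alone: they were recovered from a pseudopregnant mouse that had received A2 mESCs, and were kept in serum replacement with activin A and bFGF. Medium, host passage and stage therefore cannot be told apart in the EpiSC comparisons. EPL and naive cells differed in both the L-proline and the LIF listed, which cannot be told apart either. EPL and ground cells differed in these and in 2i.

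Cells pass from G1 into S phase when cyclin-dependent kinases phosphorylate the retinoblastoma proteins and free the E2F transcription factors. D-type cyclins bind Cdk4 and Cdk6 and link this step to growth signals, and E-type cyclins bind Cdk2 and complete it. Ink4 inhibitors block Cdk4 and Cdk6, while Cip/Kip inhibitors act mainly on Cdk2 complexes. Pluripotent mouse cells are known for a short G1 phase, high cyclin E and Cdk2 activity, and low CDK inhibitor activity. RNA levels do not show protein levels or kinase activity, and the libraries were made from whole cultures, so that fewer cells expressing a gene and less RNA per cell cannot be told apart.

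Levels are given as CPM, which scales each gene's count to the library's TMM-adjusted total, and a difference is on the log2 scale with its standard error (SE). A gene was called higher or lower when edgeR's quasi-likelihood test gave a Benjamini-Hochberg adjusted p below 0.05 over all 16575 genes, and all adjusted p-values below come from that test. Total counts were between 15320599 and 23490527 per library, and mitochondrial transcripts took 1.24% to 3.41% of them. The labels number the replicates 1 to 3 without saying that they were separate cultures, so the p-values measure the spread between these libraries, which may be technical. The EpiSC libraries stood apart in markers of other cells. A list of 10 fibroblast and feeder genes summed to 2140 to 2696 CPM in them and to 5.88 to 15.5 CPM in the other 18 libraries, where Lum, Postn or S100a4, among others, had no count in some groups. The naive markers Zfp42, Klf4, Tfcp2l1, Esrrb, Tbx3 and Nr0b1 summed to 806 to 1001.5 CPM in EpiSC libraries against 4990 to 5407 CPM in A2 ground libraries. The D3 EPL libraries came nearest to the EpiSC range, at 1048 to 1194 CPM. Klf4 (141 CPM) and Tbx3 (84.7 CPM) were higher in EpiSC than in EPL cells of A2 (58.9 and 21.2 CPM) and D3 (39.5 and 19.0 CPM). The means of Zfp42, Tfcp2l1, Esrrb and Nr0b1 were lower in EpiSC than in both EPL groups. The general pluripotency genes Pou5f1, Sox2, Nanog and Sall4 summed to 1001 to 1313 CPM in EpiSC libraries and to 1809 to 2982 CPM in the others. Pou5f1 (489 CPM), Sox2 (236 CPM) and Sall4 (147 CPM) were below every other group mean, the lowest of which were 1074, 353 and 287 CPM. Nanog (303 CPM) was above D3 EPL (193 CPM) and below the other groups. A primed list of 7 genes (T, Fgf5, Otx2, Cer1, Lefty2, Foxa2 and Zic2) summed to 311 to 493 CPM in EpiSC libraries. That range overlapped the 395 to 420 CPM of D3 EPL libraries and lay above those of the other groups. Of these primed markers, Lefty2 was at 341 ± 97.5 CPM (SD, n = 3) and T at 4.41 ± 0.38 CPM in EpiSC libraries. Both were above every other group mean, the next being 194 CPM in D3 EPL and 1.87 CPM in D3 ground. Fgf5, at 12.7 ± 5.14 CPM, was above the other A2 groups and below D3 EPL (24.4 CPM). Otx2, at 13.2 ± 1.31 CPM, was below the naive (19.8 CPM) and EPL (59.2 CPM) groups of A2 and above A2 ground (1.48 CPM).

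**Figure D1:**
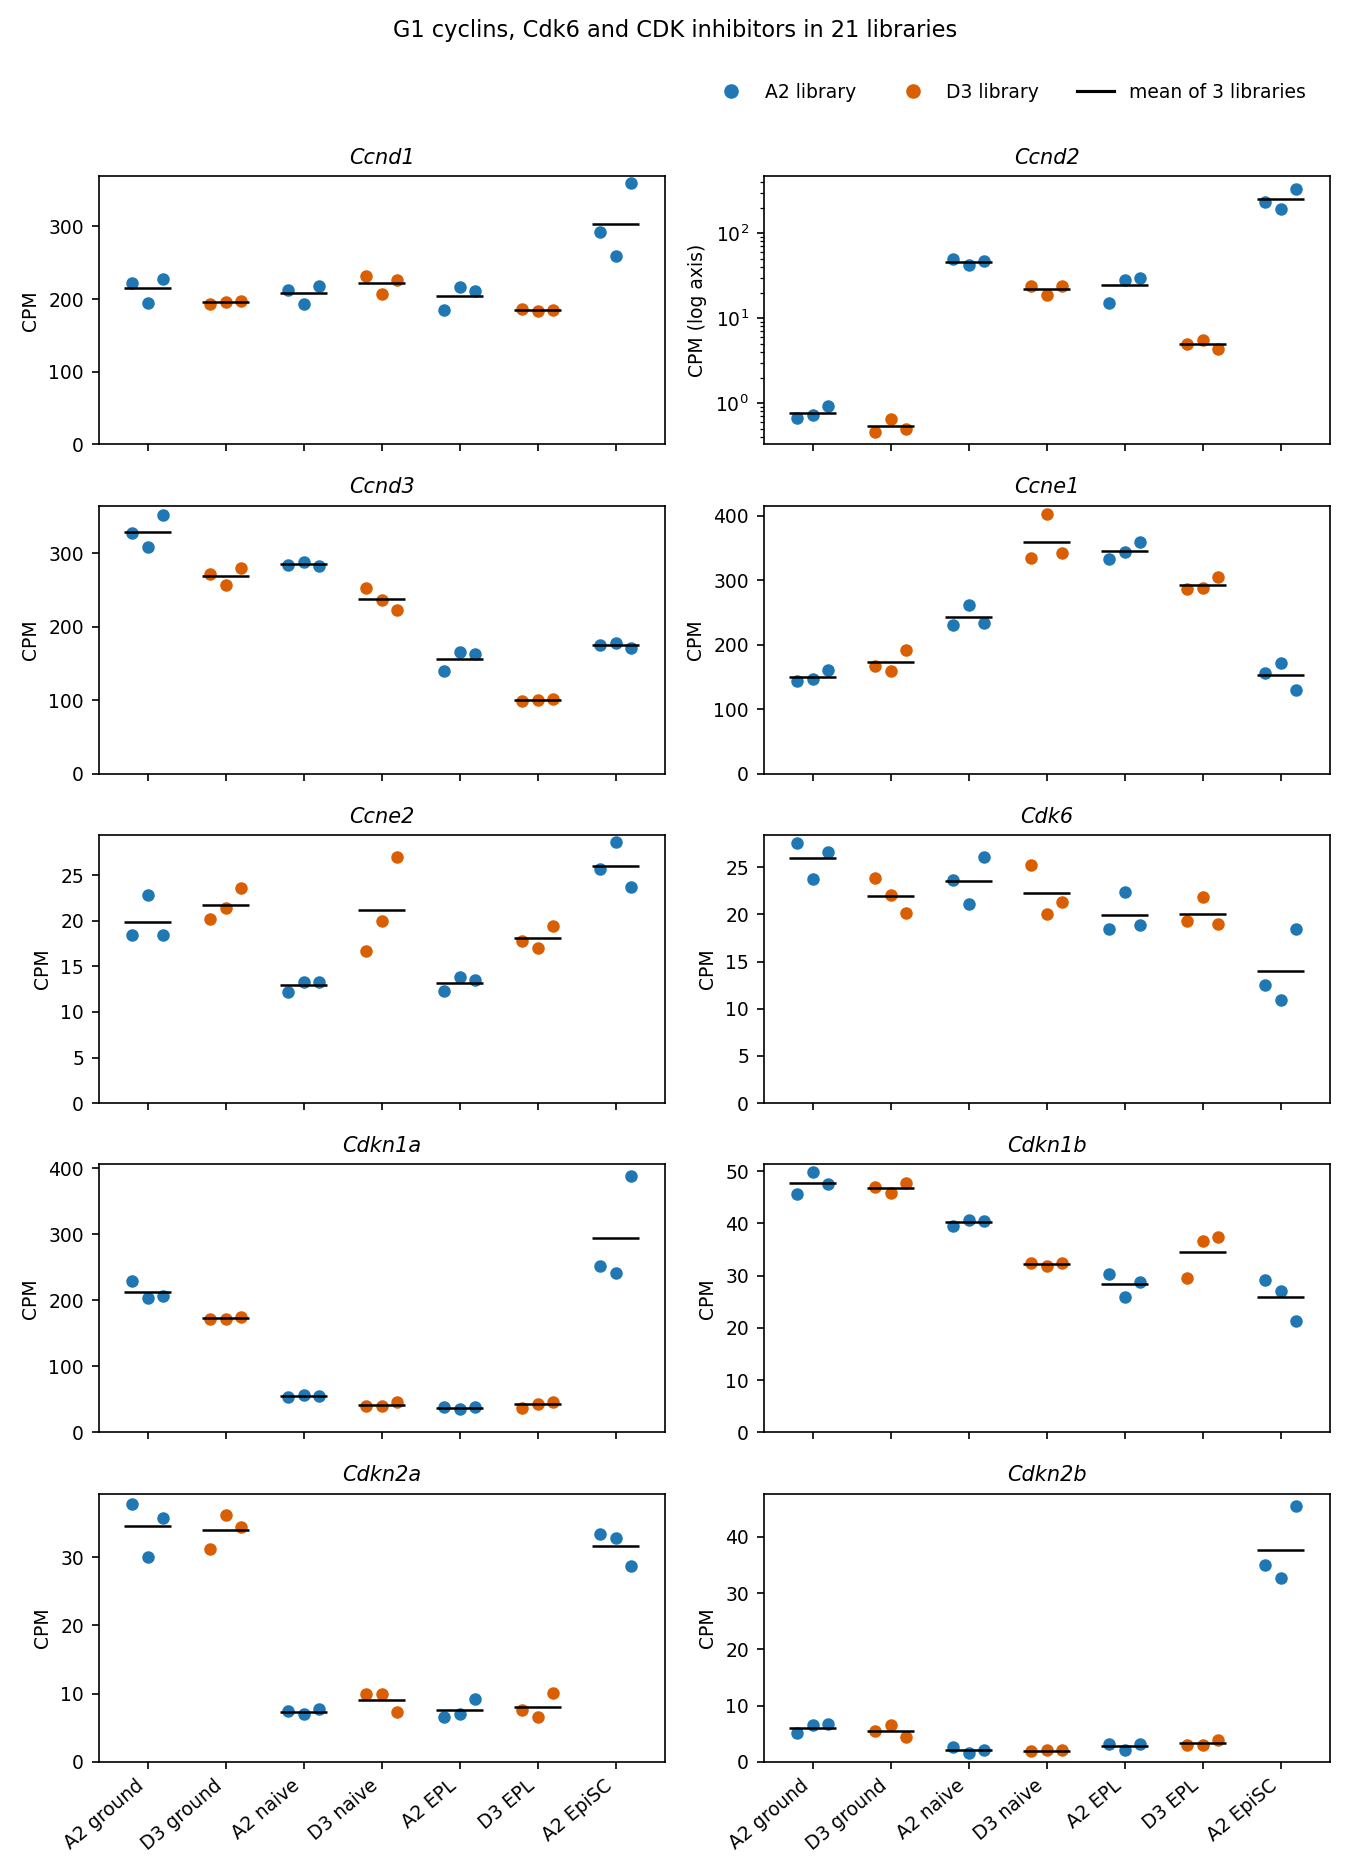
CPM of each gene (vertical axes, linear from 0 except the log axis of Ccnd2) in the 21 libraries, by group along the horizontal axis. Points are libraries, blue for A2 and orange for D3, and lines are means of 3 libraries. Cdkn1a, Cdkn2a and Cdkn2b are low in the naive and EPL groups of both lines, and Ccnd2 runs from 0.53 CPM in D3 ground to 253 CPM in A2 EpiSC.

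How far the genes ranged differed widely among them. The ratio of the highest to the lowest of the 7 group means was 474 for Ccnd2, 18.9 for Cdkn2b, 7.80 for Cdkn1a, 4.69 for Cdkn2a and 3.28 for Ccnd3. For the remaining genes it was 2.39 for Ccne1, 2.01 for Ccne2, 1.86 for Cdk6, 1.85 for Cdkn1b and 1.65 for Ccnd1. Ccnd2, Cdkn2b, Cdkn1a and Cdkn2a thus had the widest ranges, while Ccnd1 and Cdk6 moved little across the mESC and EPL groups. The range of Cdkn2b came from EpiSCs, at 37.7 CPM, the next highest mean being 6.05 CPM in A2 ground. A wide range did not mean that all groups were separate. Only for Ccnd3 did no groups adjacent in the order of means overlap.

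Ccnd2, which encodes cyclin D2 (ENSMUSG00000000184, chr6:127125162-127152193, minus strand, GRCm38), was almost absent from ground-state cells. It had 14, 13 and 17 raw counts in the 3 A2 ground libraries and 9, 14 and 9 in those of D3, or 0.66, 0.72 and 0.92 CPM and 0.46, 0.65 and 0.49 CPM. Naive libraries held 50.05, 42.5 and 46.7 CPM in A2 and 24.2, 18.6 and 24.2 CPM in D3. In EPL libraries it was at 14.999, 28.4 and 29.8 CPM in A2 and at 4.93, 5.60 and 4.32 CPM in D3. The A2 EpiSC libraries carried 231, 192 and 335 CPM. No naive, EPL or EpiSC library overlapped the ground libraries of its line, and in the order of group means only D3 naive and A2 EPL overlapped as neighbours.

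Ccnd2 rose from ground to naive cells by 5.91 ± 0.30 in A2 (60.2-fold, adjusted p = 3.38e-13) and by 5.36 ± 0.34 in D3 (41.1-fold, adjusted p = 8.16e-12). EPL cells were above ground cells by 4.99 ± 0.32 in A2 (adjusted p = 8.13e-12) and by 3.18 ± 0.41 in D3 (adjusted p = 6.13e-07). Against naive cells of the same line, EPL cells were lower, by -0.93 ± 0.19 in A2 (adjusted p = 0.000765) and by -2.18 ± 0.23 in D3 (adjusted p = 1.42e-07). The fall from naive to EPL was larger in D3 than in A2, with a difference between the lines of -1.25 ± 0.30 (adjusted p = 0.00842). EpiSCs exceeded naive cells by 2.45 ± 0.19 (5.45-fold, adjusted p = 1.17e-10), with 2.18 ± 0.16 when EpiSC replicate 3, the highest library, was left out. The lines did not pass the test in ground cells, where both were near the lower end of detection (D3 minus A2 -0.50, 95% interval -1.74 to 0.74), and D3 was lower in naive (-1.05 ± 0.19) and EPL cells (-2.31 ± 0.23).

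Ccnd3, cyclin D3 (ENSMUSG00000034165, chr17:47505051-47599691, plus strand), followed another course. A2 ground libraries had 327, 309 and 352 CPM, naive libraries 284, 289 and 283 CPM, EPL libraries 140.0, 165 and 163 CPM, and EpiSC libraries 176, 178 and 171 CPM. In D3 the values were 272, 257 and 279.7 CPM in ground, 253, 236 and 223 CPM in naive, and 99.3, 99.9 and 102 CPM in EPL libraries. The fall was thus seen in EPL cells of both lines and in EpiSCs, and no 2 groups adjacent in the order of the 7 means overlapped.

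From ground to EPL, Ccnd3 fell by 1.08 ± 0.07 on the log2 scale in A2 (adjusted p = 9.32e-12) and by 1.43 ± 0.07 in D3 (adjusted p = 7.31e-14). The D3 fall was the larger, by -0.35 ± 0.10 against ground (adjusted p = 0.0179) and by -0.37 ± 0.10 against naive cells (adjusted p = 0.0126). The former did not pass without A2 ground replicate 2 (adjusted p = 0.0553) or A2 EPL replicate 2 (0.0620). The naive cells were lower than ground cells by only -0.21 ± 0.07 in A2 (adjusted p = 0.0129) and -0.18 ± 0.07 in D3 (adjusted p = 0.0259). Those calls depended on single libraries: in A2 the adjusted p rose to between 0.0574 and 0.122 under 5 alternatives, among them leaving out ground replicate 3 or naive replicate 1 or 3. In D3 it rose to between 0.0507 and 0.153 under 9 alternatives, among them leaving out ground replicate 1 or 3 or naive replicate 2 or 3. EpiSC minus ground was -0.91 ± 0.07 (adjusted p = 6.19e-11). Of the exonic bases of Ccnd3, 361 of 8775 overlap Bysl, a gene with up to 3349 counts in a library, on the opposite strand. The library kit does not mark strand, and the part of Bysl reads in the Ccnd3 counts was not tested.

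Ccnd1, cyclin D1 (ENSMUSG00000070348, chr7:144929931-144939925, minus strand), differed little among the mESC and EPL groups. Its 9 libraries of ground, naive and EPL cells in A2 ranged from 185 to 227 CPM and the 9 of D3 from 183 to 232 CPM. Naive minus ground was -0.05 (95% interval -0.24 to 0.14) in A2 and 0.18 (-0.01 to 0.37, adjusted p = 0.104) in D3. The D3 difference passed under 5 alternatives, with adjusted p from 0.0291 to 0.0493. EPL minus ground was -0.08 in both lines, with intervals of -0.27 to 0.12 in A2 and -0.28 to 0.11 in D3. In D3 the EPL cells were below naive cells by -0.27 ± 0.09 (adjusted p = 0.0236), which did not pass without D3 naive replicate 1 or 3 or D3 EPL replicate 2 (adjusted p from 0.0514 to 0.0607). EpiSC libraries, at 292, 259 and 359.8 CPM, lay above all others, and EpiSC minus ground was 0.50 ± 0.09 (adjusted p = 4.82e-05). Of its exonic bases, 1100 of 4709 overlap Lto1 on the opposite strand.

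Compared per kilobase of exon, both the total of the D-type cyclins and their proportions differed among the groups. Their summed level was 83.3 ± 6.06 CPM per kb in A2 ground (SD, n = 3), 81.6 ± 2.74 in naive, 63.7 ± 5.92 in EPL and 111 ± 18.3 in EpiSC libraries. In D3 the sum was 72.3 ± 1.44 in ground, 76.5 ± 3.90 in naive and 51.1 ± 0.26 CPM per kb in EPL libraries. Ccnd1 held 54.8% of the sum in A2 ground, 54.1% in naive, 68.1% in EPL and 57.9% in EpiSC libraries. Ccnd3 held 45.1%, 39.9%, 27.9% and 18.3% in the same order, and Ccnd2 0.0979%, 6.05%, 4.00% and 23.8%. Along the D3 stages the share of Ccnd1 was 57.4%, 61.5% and 76.6%, and that of Ccnd3 42.5%, 35.4% and 22.4%. Which of the pair was higher in ground and naive cells depended on the length used. With the longest transcript of each gene, an alternative added after seeing the data, Ccnd3 held 59.7% and Ccnd1 40.2% in A2 ground, and 57.2% and 42.8% in D3 ground libraries. In naive libraries Ccnd3 then held 54.0% and Ccnd1 40.6% in A2, and 49.5% and 47.7% in D3. Ccnd1 remained the larger share in EPL and EpiSC libraries with either length.

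**Figure D2:**
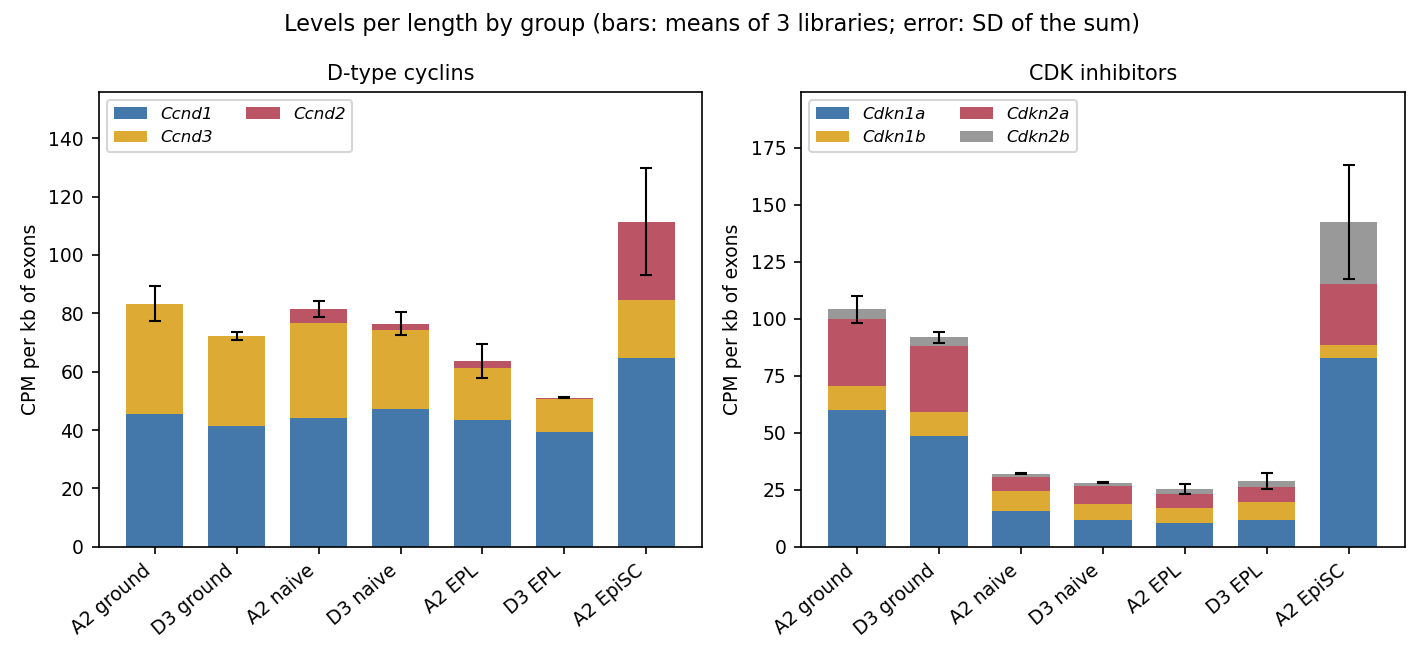
Mean CPM per kb of exon (vertical axes, from 0) of the D-type cyclins (left) and of the CDK inhibitors Cdkn1a, Cdkn1b, Cdkn2a and Cdkn2b (right), stacked by gene for each of the 7 groups. Error bars are the SD of the sum over 3 libraries. The D-type sum ranges from 51.1 to 111 CPM per kb. The inhibitor bars of the naive and EPL groups are far below those of the ground and EpiSC groups. Another CDK inhibitor, Cdkn1c, is not in these bars. Its level was 0.71 CPM per kb in A2 ground, 27.2 in naive, 30.6 in EPL and 55.1 in EpiSC libraries. In D3 it was 0.66 in ground, 22.1 in naive and 20.3 CPM per kb in EPL libraries.

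Ccne1, cyclin E1 (ENSMUSG00000002068, chr7:38097984-38107534, minus strand), was higher in naive and EPL cells than in ground-state cells. It had 144, 147 and 161 CPM in A2 ground, 231, 262 and 234 CPM in naive, 332, 343 and 359.9 CPM in EPL and 156, 171 and 131 CPM in EpiSC libraries. D3 libraries had 168, 159.8 and 192 CPM in ground, 335, 402 and 342 CPM in naive, and 286, 288 and 305 CPM in EPL cells. All naive and EPL libraries exceeded all ground libraries, and the EpiSC libraries overlapped the ground libraries of both lines. Cdk2, the kinase that E-type cyclins bind, was instead lower in naive and EPL than in ground libraries. In A2 it was at 131 ± 5.68 CPM (SD, n = 3) in ground, 79.6 ± 4.63 in naive, 104 ± 3.28 in EPL and 75.3 ± 4.76 in EpiSC libraries. In D3 it was at 144 ± 3.46 CPM in ground, 90.5 ± 5.49 in naive and 106 ± 0.63 in EPL libraries.

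In Ccne1, naive cells were above ground cells by 0.69 ± 0.09 in A2 (adjusted p = 1.93e-06) and by 1.06 ± 0.09 in D3 (adjusted p = 2.49e-09). From naive to EPL the lines parted: Ccne1 rose further in A2, by 0.51 ± 0.09 (adjusted p = 0.000198), and fell by 0.29 ± 0.09 in D3 (adjusted p = 0.0124). The difference between those changes was -0.80 ± 0.13 (adjusted p = 0.000293). Without D3 naive replicate 2, the library at 402 CPM, the D3 fall was -0.21 and did not pass (adjusted p = 0.0835). Measured from ground to EPL the lines differed by -0.43 ± 0.13 (adjusted p = 0.0291), which did not pass when any of 7 libraries was left out (adjusted p from 0.0545 to 0.0779): A2 ground replicates 1 and 2, A2 EPL replicates 2 and 3, D3 ground replicate 3, and D3 EPL replicates 1 and 2. EpiSCs were lower than naive (-0.67 ± 0.09) and EPL cells (-1.18 ± 0.09) and differed from ground cells by 0.02 (95% interval -0.17 to 0.21). Scaling to total counts, which raised the median of all genes by 0.26 in that comparison, gave 0.28 for Ccne1 (adjusted p = 0.00649).

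Ccne2, cyclin E2 (ENSMUSG00000028212, chr4:11191351-11204779, plus strand), was the minor E-type cyclin in every group. Per kilobase, Ccne1 held between 88.5% of the E-type sum (A2 EpiSC) and 97.2% (A2 EPL). Ccne2 was at 18.4, 22.9 and 18.5 CPM in A2 ground, 12.2, 13.2 and 13.3 CPM in naive, 12.3, 13.8 and 13.5 CPM in EPL, and 25.7, 28.6 and 23.7 CPM in EpiSC libraries. In D3 it ran at 20.2, 21.4 and 23.6 CPM in ground, 16.6, 19.95 and 27.0 CPM in naive, and 17.8, 17.0 and 19.4 CPM in EPL libraries. The A2 naive and EPL libraries were the lowest, below every other library. In A2 it fell by 0.62 ± 0.13 from ground to naive (adjusted p = 0.000532), opposite to Ccne1. The D3 difference was -0.04 (95% interval -0.31 to 0.23), and the difference between the lines was 0.59 ± 0.19 and did not pass (adjusted p = 0.102). It did pass with DESeq2, with no filter on low counts and without D3 naive replicate 1, with adjusted p from 0.0146 to 0.0463. EpiSCs were above naive cells by 1.01 ± 0.13 (adjusted p = 5.76e-07) and above ground cells by 0.39 ± 0.13 (adjusted p = 0.00967), the latter lost without EpiSC replicate 2 (0.30, adjusted p = 0.0629). Here 609 of 3495 exonic bases overlap Ints8, a gene with up to 1977 counts in a library, on the opposite strand.

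Cdk6, a kinase partner of the D-type cyclins (ENSMUSG00000040274, chr5:3341485-3531008, plus strand), ran at 18.4 to 27.6 CPM in all 18 mESC and EPL libraries. Its differences between these stages did not pass except EPL against ground in A2, at -0.39 ± 0.14 (adjusted p = 0.0264). That call was lost under 5 alternatives (adjusted p from 0.0643 to 0.118), including without A2 ground replicate 1 or 3 or A2 EPL replicate 1 or 3. EpiSC libraries had 12.5, 10.9 and 18.4 CPM, and EpiSC minus ground was -0.90 ± 0.14 (adjusted p = 7.87e-06). Per kilobase, Cdk6 was a small part of the G1 kinases: Cdk4 held between 98.9% and 99.2% of the sum of the pair in every group.

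**Figure D3:**
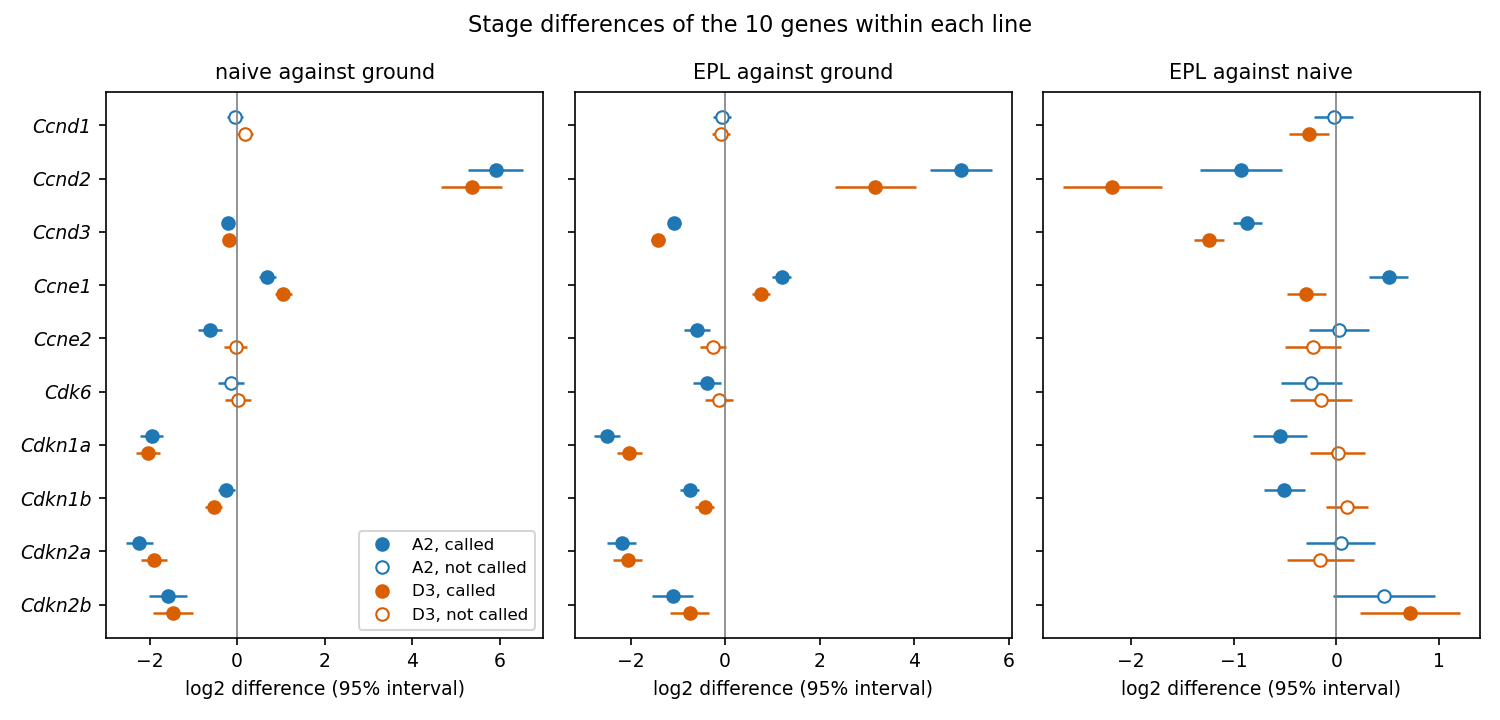
log2 differences with 95% intervals (horizontal axes) of the 10 genes for naive minus ground (left), EPL minus ground (middle) and EPL minus naive (right), in A2 (blue) and D3 (orange). Filled points passed an adjusted p below 0.05. In the left and middle panels Ccnd2 and Ccne1 lie to the right of 0 and the 4 inhibitors to the left in both lines, and in the right panel the Ccne1 points lie on opposite sides of 0.

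Cdkn1a, which encodes the Cip/Kip inhibitor p21 and is a classic p53 target (ENSMUSG00000023067, chr17:29090976-29100727, plus strand), was high in ground cells and low after 2i withdrawal. A2 ground libraries had 229, 203 and 207 CPM, naive libraries 53.05, 57.1 and 55.2 CPM and EPL libraries 39.0, 35.3 and 38.8 CPM. D3 ground libraries had 171, 172 and 175 CPM, naive libraries 39.6, 40.7 and 45.9 CPM and EPL libraries 37.5, 43.4 and 45.9 CPM. The EpiSC libraries, at 252, 242 and 388 CPM, were the highest of all 21.

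From ground to naive it fell by 1.95 ± 0.13 in A2 (3.86-fold, adjusted p = 1.83e-11) and by 2.04 ± 0.13 in D3 (4.11-fold, adjusted p = 8.68e-12). In A2 Cdkn1a fell by a further 0.55 ± 0.13 from naive to EPL (adjusted p = 0.00221), while the D3 difference was 0.01 (95% interval -0.26 to 0.28). The difference between the lines, 0.56 ± 0.18, was at an adjusted p of 0.046, and it did not pass under 11 alternatives (0.0563 to 0.118), which were RLE scaling and leaving out any of the 12 naive and EPL libraries other than D3 naive replicate 3 and D3 EPL replicate 1. EpiSCs exceeded naive cells by 2.41 ± 0.13 (adjusted p = 2.89e-13) and ground cells by 0.46 ± 0.12 (adjusted p = 0.00146). Without EpiSC replicate 3 the latter was 0.20 ± 0.08 (adjusted p = 0.0309).

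Cdkn1b, the Cip/Kip inhibitor p27 (ENSMUSG00000003031, chr6:134920401-134925513, plus strand), moved in the same direction by less from ground to naive and from ground to EPL cells. Ground libraries had 45.7, 49.9 and 47.6 CPM in A2 and 47.1, 45.8 and 47.8 CPM in D3. Naive libraries had 39.6, 40.8 and 40.5 CPM in A2 and 32.5, 31.8 and 32.5 CPM in D3, and EPL libraries 30.4, 26.0 and 28.7 CPM in A2 and 29.6, 36.7 and 37.3 CPM in D3. The 3 EpiSC libraries, at 29.1, 27.1 and 21.3 CPM, overlapped the A2 EPL libraries and lay below the ground libraries, whereas those of Cdkn1a lay above.

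From ground to naive, Cdkn1b fell by 0.54 ± 0.10 in D3 (adjusted p = 5.67e-05) and by 0.24 ± 0.09 in A2 (adjusted p = 0.0353), where 9 alternatives, including the removal of any of the 6 libraries, ended the call (0.0542 to 0.144). From naive to EPL it fell by 0.51 ± 0.10 in A2 (adjusted p = 0.00037), the D3 difference was 0.10 ± 0.10 (adjusted p = 0.411), and the lines differed by 0.61 ± 0.14 (adjusted p = 0.00495). EpiSC minus ground was -0.89 ± 0.10 (adjusted p = 2.8e-08).

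Per kilobase, the level of Cdkn1a and Cdkn1b together was 70.4 ± 3.51 CPM per kb in A2 ground, 24.4 ± 0.70 in naive, 16.8 ± 1.05 in EPL and 88.4 ± 22.2 in EpiSC libraries. In D3 it was 58.9 ± 0.66, 18.9 ± 0.97 and 19.5 ± 2.13 in the first 3 of those stages. Cdkn1b made up 14.9% of the sum in A2 ground, 36.3% in naive, 37.0% in EPL and 6.81% in EpiSC libraries. The third Cip/Kip inhibitor, Cdkn1c (p57, an imprinted gene), went the other way from ground to naive cells. It had 1.56, 1.33 and 1.47 CPM in A2 ground and 54.9, 58.5 and 52.8 CPM in A2 naive libraries. In EPL libraries it was at 62.5 ± 0.91 CPM (SD, n = 3) in A2 and 41.4 ± 3.94 CPM in D3. Like Cdkn1a, it was highest in EpiSC libraries, at 112 ± 11.8 CPM. The naive minus ground difference of Cdkn1c was 5.24 ± 0.14 in A2 (adjusted p = 5.55e-18) and 5.06 ± 0.14 in D3 (adjusted p = 1.06e-17).

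Cdkn2a and Cdkn2b are neighbours on the minus strand of chromosome 4, with Cdkn2a at chr4:89274471-89294653 (ENSMUSG00000044303) and Cdkn2b at chr4:89306299-89311039 (ENSMUSG00000073802), 11646 bases apart. Cdkn2b encodes the Ink4 inhibitor p15. Cdkn2a has 2 annotated transcripts with separate first exons, one for the Ink4 inhibitor p16 and one for p19Arf, which acts on Mdm2 and p53 instead of on a kinase. The counts sum both and do not tell them apart. The windows around the 3 annotated starts are shown because these neighbours fell together in naive and EPL cells and parted in EpiSCs. They are RefSeq promoter sequences of the GRCm38.p6 assembly, 5′ to 3′ on the minus strand, with capitals marking a match to an E2F motif.
Cdkn2a, downstream start, chr4:89282143-89282442: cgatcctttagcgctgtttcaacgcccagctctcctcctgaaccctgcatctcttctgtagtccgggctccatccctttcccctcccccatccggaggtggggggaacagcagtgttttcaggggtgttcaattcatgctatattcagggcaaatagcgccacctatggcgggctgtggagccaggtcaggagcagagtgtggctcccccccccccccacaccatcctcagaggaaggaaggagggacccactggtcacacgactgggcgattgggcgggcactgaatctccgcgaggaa
Cdkn2a, upstream start, chr4:89294570-89294869: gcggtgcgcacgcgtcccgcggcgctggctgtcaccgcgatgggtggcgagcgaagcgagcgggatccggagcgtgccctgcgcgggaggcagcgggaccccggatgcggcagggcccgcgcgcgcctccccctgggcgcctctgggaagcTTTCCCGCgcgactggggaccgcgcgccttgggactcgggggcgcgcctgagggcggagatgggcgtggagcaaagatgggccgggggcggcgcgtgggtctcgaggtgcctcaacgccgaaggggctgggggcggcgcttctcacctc
Cdkn2b, chr4:89310983-89311282: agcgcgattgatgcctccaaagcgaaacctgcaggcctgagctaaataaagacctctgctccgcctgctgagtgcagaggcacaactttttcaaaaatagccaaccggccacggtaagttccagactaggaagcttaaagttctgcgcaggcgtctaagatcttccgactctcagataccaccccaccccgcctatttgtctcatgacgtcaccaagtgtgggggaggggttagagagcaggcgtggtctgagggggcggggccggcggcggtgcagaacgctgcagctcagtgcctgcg

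The E2F motif was searched on both strands as TTTCCCGC, TTTCGCGC, TTTGCCGC or TTTGGCGC. It had 1 match, in the upstream Cdkn2a window, and none in the windows of the other members in the table (Ccnd3, Ccne1, Cdk6, Cdkn1a, Cdkn1b, Cdkn2b). Among all 32851 promoter windows, 744 (2.26%) held it. A GC box, GGGCGG on either strand, occurred 3 times in the upstream Cdkn2a window and 1 time each in the downstream Cdkn2a and the Cdkn2b windows, and was in 35.66% of all windows. The upstream Cdkn2a window held 45 CpG pairs, the downstream one 12 and the Cdkn2b window 18. Ccnd1, Ccnd2 and Ccne2 had no promoter window to search. These are matches of letters and do not show binding, and the counts do not say which start was used. A window without a match is not shown to lack E2F sites, because only these exact letters in these windows were searched.

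Cdkn2a was at 37.8, 30.1 and 35.8 CPM in A2 ground and 31.3, 36.2 and 34.4 CPM in D3 ground libraries. Naive libraries had 7.38, 6.96 and 7.75 CPM in A2 and 9.95, 9.92 and 7.31 CPM in D3, and EPL libraries 6.55, 6.98 and 9.23 CPM in A2 and 7.52, 6.52 and 10.1 CPM in D3. EpiSC libraries overlapped the ground libraries, with 33.4, 32.8 and 28.8 CPM. The libraries thus formed a high set of ground and EpiSC and a low set of naive and EPL, and groups within each set overlapped.

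The ground to naive difference was -2.23 ± 0.15 in A2 (4.69-fold, adjusted p = 2.31e-11) and -1.91 ± 0.14 in D3 (3.75-fold, adjusted p = 1.98e-10). EPL minus naive was 0.04 (95% interval -0.30 to 0.38) in A2 and -0.16 (-0.49 to 0.17) in D3. EpiSCs exceeded naive cells by 2.10 ± 0.15 (adjusted p = 2.38e-11), and their difference from ground was -0.13 (95% interval -0.40 to 0.14, adjusted p = 0.377).

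Cdkn2b was low in all groups but EpiSC. It was at 5.06, 6.47 and 6.63 CPM in A2 ground, 2.59, 1.47 and 2.05 CPM in naive and 3.19, 2.12 and 3.08 CPM in EPL libraries. D3 libraries had 5.52, 6.60 and 4.43 CPM in ground, 1.83, 2.11 and 2.05 CPM in naive, and 2.92, 2.96 and 3.85 CPM in EPL cells. EpiSC libraries had 35.1, 32.7 and 45.5 CPM, far above every other library.

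Ground to naive, Cdkn2b fell by 1.58 ± 0.21 in A2 (adjusted p = 1.94e-06) and by 1.47 ± 0.22 in D3 (adjusted p = 5.9e-06). EPL cells were above naive cells by 0.72 ± 0.23 in D3 (adjusted p = 0.0163), a call lost without D3 naive replicate 1 (adjusted p = 0.0595) or D3 EPL replicate 3 (0.107), and by 0.47 ± 0.24 in A2 (adjusted p = 0.147). EpiSC minus ground was 2.64 ± 0.17 (6.25-fold, adjusted p = 3.95e-12) and EpiSC minus naive 4.22 ± 0.19 (18.7-fold, adjusted p = 3.04e-14). Per kilobase, Cdkn2b made up 13.0% of the sum of the pair in A2 ground, 18.7% in naive, 23.8% in EPL and 49.9% in EpiSC libraries. Mtap, the neighbour on the Cdkn2a side, also fell from ground to naive cells, by -0.76 ± 0.06 in A2 and -0.62 ± 0.06 in D3, and was not called between EpiSC and ground (-0.13 ± 0.06, adjusted p = 0.0806). Dmrta1, the neighbour on the Cdkn2b side, did not pass the filter on low counts.

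Counted over the set, naive against ground gave 2 members higher and 6 lower in A2, where 51.0% of all genes tested were called (25.1% higher, 25.9% lower), and 2 higher and 5 lower in D3, where 53.6% were called (26.3% higher, 27.3% lower). With EPL cells in place of naive cells, 2 were higher and 7 lower in A2, beside 54.8% of all genes (27.2% higher, 27.6% lower), and 2 were higher and 5 lower in D3, beside 57.8% (29.4% higher, 28.4% lower). Between EPL and naive cells, 1 was higher (Ccne1) and 4 lower in A2, beside 32.8% of all genes (16.8% higher, 16.1% lower), and 1 was higher (Cdkn2b) and 4 lower in D3, beside 44.9% (24.4% higher, 20.4% lower). The members' share called was above that of all genes in these 6 comparisons, least so for EPL against naive in D3 (5 of 10). Their median absolute log2 difference in naive against ground was 0.65 in A2 and 0.80 in D3, beside 0.38 and 0.42 over all genes. For EPL against ground it was 1.09 and 0.76, beside 0.43 and 0.46. For EPL against naive it was 0.49 in A2, beside 0.27, but 0.25 in D3, below the 0.34 of all genes. With so few genes, these counts describe the set and are no test of it. The comparisons with ground share the same ground libraries.

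Between the lines, the ground groups differed least: D3 against A2 called Ccnd3 alone, as lower (-0.29 ± 0.07, adjusted p = 0.00339), beside 20.1% of all genes (9.13% higher, 10.9% lower). Fitting the 2 ground groups alone called 4 members, adding Ccne1, Cdk6 and Cdkn1a. In naive cells 6 members were called, beside 29.9% of all genes (14.5% higher, 15.4% lower), with Ccne1 (0.57 ± 0.09) and Ccne2 (0.71 ± 0.13) higher in D3 and Ccnd2, Ccnd3, Cdkn1a (-0.39 ± 0.13) and Cdkn1b (-0.32 ± 0.10) lower. The Cdkn1a call did not pass without A2 naive replicate 2 or 3 or D3 naive replicate 1 or 2 (adjusted p from 0.0658 to 0.0906). In EPL cells 4 were called, beside 29.4% of all genes (15.6% higher, 13.8% lower): Ccne2 (0.46 ± 0.14) and Cdkn1b (0.29 ± 0.10) higher in D3 and Ccnd2 and Ccnd3 lower. Without D3 EPL replicate 3 the count was 2, with Ccne2 at an adjusted p of 0.0726 and Cdkn1b at 0.152. Ccne2 also missed the threshold without A2 EPL replicate 1 (0.0509), and Cdkn1b without A2 EPL replicate 2 (0.152) or 3 (0.0694) or D3 EPL replicate 2 (0.129).

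The change from ground to naive differed between the lines for none of the 10 members by edgeR, beside 3.06% of all genes (1.51% more positive in D3, 1.56% more negative), with 3 at an unadjusted p below 0.05 and 1, Ccne2, called by DESeq2. From ground to EPL 2 members differed, Ccnd3 and Ccne1, both more negative in D3, beside 13.3% of all genes (7.25% more positive, 6.06% more negative). Of the 10 members, Ccnd2 had the largest difference, -1.81 ± 0.68, and did not pass (adjusted p = 0.0840), but it passed with DESeq2 (0.00400), with no filter on low counts (3.04e-05), with only the groups compared (0.0273) and without A2 EPL replicate 1 (0.0129). Cdkn1a passed under 2 alternatives (0.00404 to 0.00593) and Cdkn1b under 1 (0.0436), both more positive in D3. From naive to EPL 5 differed, with Ccnd2, Ccnd3 and Ccne1 more negative and Cdkn1a and Cdkn1b more positive in D3, beside 12.7% of all genes (6.78% more positive, 5.93% more negative).

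EpiSCs differed from naive cells in all 10 members, 6 higher and 4 lower, beside 70.3% of all genes called (39.1% higher, 31.2% lower). Against ground cells 5 were higher and 3 lower, beside 73.2% (39.1% higher, 34.1% lower), and against EPL cells 7 were higher and 2 lower, beside 70.4% (39.1% higher, 31.3% lower). Higher against all 3 other A2 stages were Ccnd1, Ccnd2, Ccne2, Cdkn1a and Cdkn2b, and lower against all 3 was Cdk6. The Ccnd3 rise against EPL cells (0.16 ± 0.07, adjusted p = 0.0375) was lost under 8 alternatives (adjusted p from 0.0522 to 0.252), including without A2 EPL replicate 1 or any EpiSC library. The fall of Cdk6 against EPL cells (-0.51 ± 0.15) was -0.31 and not called when libraries were scaled to total counts (adjusted p = 0.0729), and -0.78 ± 0.13 without EpiSC replicate 3 (adjusted p = 1.44e-05). EpiSC replicate 3 held the highest level of Ccnd1, Ccnd2, Cdkn1a and Cdkn2b and also the highest sum of the fibroblast list, 2696 CPM. Among the EpiSC libraries it was also the highest in Cdk6 (18.4 CPM). It was the lowest of them in Ccnd3 (171 CPM), Ccne1 (131 CPM), Ccne2 (23.7 CPM), Cdkn1b (21.3 CPM) and Cdkn2a (28.8 CPM). Col1a1 was at 1232 ± 163 CPM, Col1a2 at 716 ± 97.4 CPM and Col3a1 at 281 ± 12.1 CPM in EpiSC libraries, and all 10 genes of that list were detected there. A primitive endoderm list of 8 genes summed to 928 to 1257 CPM in EpiSC and 125 to 389 CPM in other libraries, led by Sparc (912 ± 150 CPM), which fibroblasts also express. Neural (4 genes), trophoblast (5 genes) and mesendoderm (4 genes) lists were higher there too, at 240.1 to 398 CPM, 107 to 185 CPM and 24.7 to 30.0 CPM in EpiSC libraries against 24.9 to 108 CPM, 13.8 to 50.3 CPM and 3.32 to 15.6 CPM in the others. The part of any such cells in the cyclin and inhibitor values of EpiSC libraries was not tested.

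**Figure D4:**
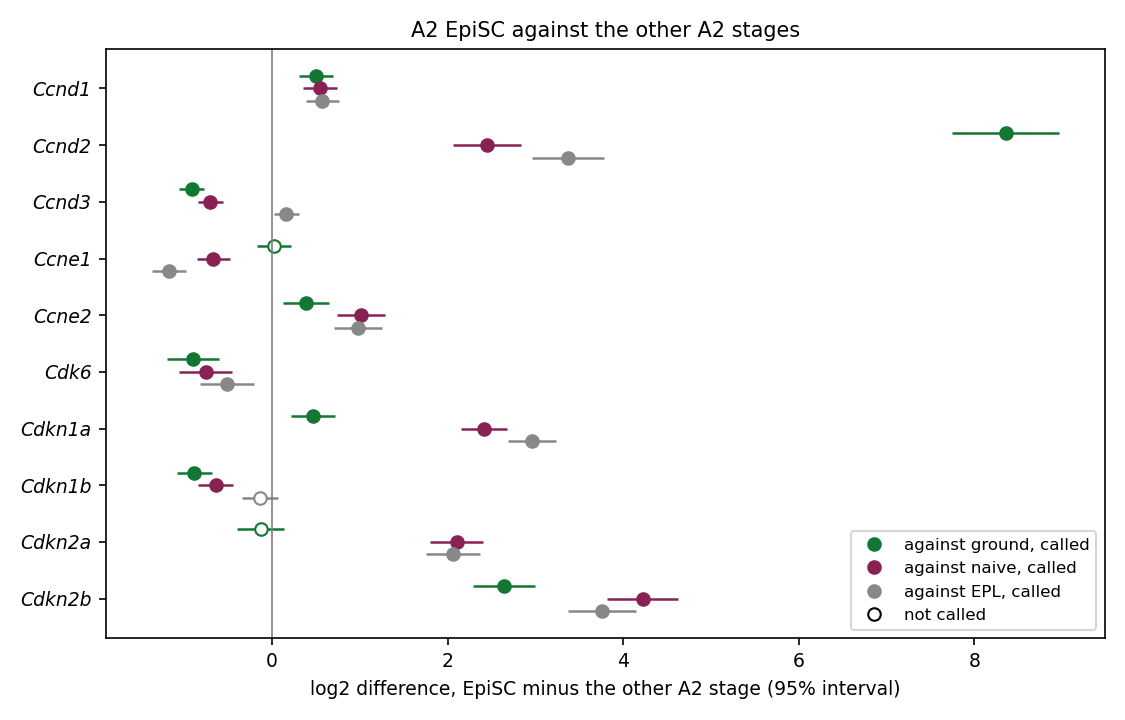
log2 difference, EpiSC minus ground (green), naive (purple) and EPL (grey), with 95% intervals (horizontal axis), for the 10 genes (vertical axis). Filled points passed an adjusted p below 0.05. Ccnd2 against ground lies farthest from 0, at 8.36, and Cdk6 lies left of 0 in all 3 comparisons.

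Among 27 other regulators of G1 and S phase, 9 rose and 11 fell from ground to naive in A2, beside 51.0% of all genes called, and 11 rose and 8 fell in D3, beside 53.6%. Apart from Cdkn1c, the called genes with at least 5 CPM in the higher group that moved most were Cdkn2d, an Ink4 inhibitor (-0.93 ± 0.12), and E2f8, a repressor of the E2F family (0.91 ± 0.11), in A2, and E2f8 (1.43 ± 0.11) and E2f2, an activator of that family (0.85 ± 0.09), in D3. Rbl1, the pocket protein p107, came next in D3 (-0.76 ± 0.08). The list's median difference was 0.02 in A2 and -0.05 in D3, beside 0.00 and 0.01 for all genes. From ground to EPL in A2, 10 of the list rose and 10 fell, beside 54.8% of all genes called, and Rbl1 fell by 1.31 ± 0.08. Between the lines in ground cells, 4 of the list were higher and 5 lower in D3, beside 20.1% of all genes called. Among the lower, Rb1, the retinoblastoma gene, was at 25.4 CPM in A2 and 8.78 CPM in D3 ground cells, a difference of -1.53 ± 0.15 (adjusted p = 1.47e-07).

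Of 18 genes known to regulate these cyclins and inhibitors, 9 rose and 6 fell in A2 and 7 rose and 7 fell in D3 from ground to naive, beside 51.0% and 53.6% of all genes called. The list's median difference was 0.14 in A2 and 0.10 in D3, beside 0.00 and 0.01 for all genes. Myc, an activator of Ccnd2 and a repressor of Cdkn1a and Cdkn2b in textbook accounts, rose by 2.35 ± 0.10 in A2 and 2.65 ± 0.10 in D3, and Id1, an inhibitor of bHLH factors, by 3.24 ± 0.16 and 3.46 ± 0.15. Mycl, of the same family, changed by -2.38 ± 0.11 and -2.17 ± 0.11. In EpiSCs 4 of the 18 were higher and 12 lower than in naive cells, beside 70.3% of all genes called (39.1% higher, 31.2% lower). The list's median difference there was -0.65, beside 0.08 for all genes. Myc was among the lower, by -1.93 ± 0.10, while Bmi1, a Polycomb protein known to repress Cdkn2a, was higher by 1.75 ± 0.11.

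The 26 E2F targets of S phase entry showed 2 higher and 12 lower in naive against ground cells in each line. In each line 12 of the 26 were not called, beside 51.0% of all genes called in A2 (25.9% lower) and 53.6% in D3 (27.3% lower), so the share called was near that of all genes. The list's median differences were -0.18 in A2 and -0.20 in D3, beside 0.00 and 0.01 for all genes. Uhrf1, a DNA methylation maintenance factor, changed by -0.62 ± 0.08 in A2 and -0.91 ± 0.08 in D3, and Cdc6, which loads the replicative helicase, by -0.53 ± 0.08 and -0.51 ± 0.08. In EpiSCs 24 of the 26 were lower than in ground cells, where 34.1% of all genes were lower, with a median of -0.63 beside 0.04 for all genes. The helicase subunits Mcm3 (-1.40 ± 0.07) and Mcm6 (-1.23 ± 0.08) led that fall. Of 20 G2 and M phase genes, 12 were lower and 1 higher in EpiSC than in ground cells, beside 73.2% of all genes called (39.1% higher, 34.1% lower), with a median of -0.33 beside 0.04. In naive against ground cells 5 were lower and 3 higher in A2 and 4 lower and 2 higher in D3, smaller shares than the 51.0% and 53.6% of all genes called there. The EpiSC differences of both lists stand beside the fibroblast marker levels given above, whose part in them was not tested.

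A list of 21 p53 targets, which leaves out Cdkn1a and shares Ccng1 and Mdm2 with other lists here, gave 4 higher and 10 lower in A2 and 5 higher and 10 lower in D3 from ground to naive, beside 51.0% (25.9% lower) and 53.6% (27.3% lower) of all genes called. The list's median difference was -0.21 in each line, beside 0.00 and 0.01 for all genes. Sesn1 fell, as Cdkn1a did (-1.18 ± 0.09 and -1.08 ± 0.09), and Pmaip1, a pro-apoptotic gene, rose by 1.45 ± 0.10 and 1.50 ± 0.10. From naive to EPL, 2 rose and 8 fell in A2, beside 32.8% of all genes called (16.8% higher, 16.1% lower), and 13 rose and 3 fell in D3, beside 44.9% (24.4% higher, 20.4% lower). The difference between the lines was called for 8 of the 21, all more positive in D3, beside 12.7% of all genes (6.78% more positive), with a list median of 0.44 beside 0.02 for all genes. In ground cells 14 of them were lower in D3 than in A2, beside 20.1% of all genes called (10.9% lower), with Perp (-1.87 ± 0.16) and Btg2 (-1.27 ± 0.10) farthest apart, while Cdkn1a itself differed by -0.30 ± 0.12 (adjusted p = 0.0827).

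Levels of the members across the 21 libraries were compared with those of 11445 other genes by Pearson correlation of log2 CPM. Values are descriptions only, because libraries of a group share their stage and line. Nearest to Cdkn1a were Pik3r3 (r = 0.992), Man2b2 (0.986) and Calu (0.985), and nearest to Cdkn2a were Nucb1 (0.988), Skida1 (0.984) and Meis2 (0.980). Rnf11 (0.974), Zbtb4 (0.974) and Mcur1 (0.972) lay nearest to Cdkn2b. For Ccnd2 the nearest were Cotl1 (0.977), Synj2 (0.976) and Piwil4 (0.973), for Ccnd3 Triml1 (0.975), Mmrn2 (0.974) and Slc1a5 (0.970), and for Ccne1 Uba3 (0.964), Dpf1 (0.961) and Dnmt3l (0.959). Cdkn1b was nearest to Ly6g6e (0.939), Kcns3 (0.936) and Spint1 (0.927). The highest values of the other members were 0.911 for Ccnd1 with Nuak1, 0.894 for Cdk6 with Gtse1 and 0.891 for Ccne2 with Cbfb. Among the members themselves the value farthest from 0 was that of Ccne1 with Cdkn1a, at -0.954, and Ccne1 with Cdkn2a was at -0.874. Cdkn1a correlated with Cdkn2a at 0.944 and with Cdkn2b at 0.827.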

How the data were processed

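RNA was sequenced from 21 libraries of 7 groups. The authors deposited a table of raw counts per Ensembl gene and library, and per the labels' protocols the libraries were made with a TruSeq kit that does not mark strand. HISAT2, SAMtools and featureCounts with the build GRCm38 were used, per the submitters' processing notes, with versions and settings not given in the sources used here. All 39396 identifiers matched GENCODE release M21, which gave positions and exon lengths. Samples were grouped by the line and stage in their labels.

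Genes were filtered with filterByExpr (minimum count 10, minimum total 15), scaled with TMM and fitted in a single edgeR 4.0.16 quasi-likelihood model (R 4.3.3, limma 3.58.1) with 1 mean per group over all 21 libraries and no pairing. Benjamini-Hochberg adjustment ran over 16575 genes in each of 15 comparisons, and genes were called at an adjusted p below 0.05. The code was tested on simulated data. The members and the 6 gene lists were chosen with earlier results of these data known, and so nothing said of them is independent evidence. All 10 members are named, up to 4 called genes of each list with the largest differences (mean of 5 CPM or more in the higher group), and the 3 genes most alike in level to each member (log2 CPM, prior count 2). Alternatives were RLE and total-count scaling, no filter and a stricter filter (1 CPM and 10 counts in 3 libraries), a replicate block, only the groups compared, each library left out, and DESeq2 1.42.0. Depth of 15320599 to 23490527 counts limits precision only for genes of few counts, among which Ccnd2 in ground cells.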

Additional observations from a re-analysis of the deposited data

Results flagged for a closer look

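Each value here is the D3 change minus the A2 change of the same stage comparison (log2), from the interaction test in edgeR, and each passed an adjusted p below 0.05 with all libraries and the settings as reported. From ground to EPL this held for Ccnd3 at -0.35, which fell more in D3, and for Ccne1 at -0.43, which rose less in D3. From naive to EPL it held for Ccnd2 at -1.25 and Ccnd3 at -0.37, which fell more in D3, and for Ccne1 at -0.80, which rose in A2 and fell in D3. It held too for Cdkn1a at 0.56 and Cdkn1b at 0.61, which fell in A2 and were not called in D3. Under the alternatives tried, Cdkn1a lost the call under 11 (adjusted p from 0.0563 to 0.118), Ccne1 from ground to EPL under 7 (0.0545 to 0.0779) and Ccnd3 from ground to EPL under 2 (0.0553 and 0.0620), while the other 4 lost it under none. The comparisons share the EPL libraries, and line, source of the cells and handling cannot be told apart.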

How the results depend on the processing

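Over 150 differences of the 10 genes, 86 were called, and 2130 values were computed under the alternatives. Of these values 2026 kept their side of the threshold, 75 lost the call, 29 gained it, and 0 were called with the opposite sign. A sign change among values called in neither occurred 54 times, at a size of at most 0.19. The lost calls belonged to 16 of the 86 differences. The number of members called moved by more than 1.5 times in 4 comparisons. For D3 against A2 in ground cells it was 1, against 2 with no filter on low counts and 4 with only the groups compared. For D3 against A2 in EPL cells it was 4, and 2 to 4 when libraries were left out in turn. For the line difference in the change from ground to naive it was 0, against 2 with no filter, 1 with DESeq2 and 0 to 1 with a library left out, while the count over all genes was 508, against 846 with no filter and 310 to 515 with a library left out. For that in the change from ground to EPL it was 2, against 4 with no filter, 4 with only the groups compared and 0 to 3 with a library left out, the lowest without A2 ground replicate 2 or A2 EPL replicate 2. The causes were not tested.

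Scaling to total counts shifted the median of all genes in EpiSC comparisons by 0.26 against ground, 0.18 against naive and 0.21 against EPL cells. The split of called genes against ground was 6488 higher and 5648 lower, and 8280 and 3658 with that scaling. Against naive it was 6476 and 5179, and 7838 and 3854. Against EPL it was 6475 and 5192, and 7966 and 3638.

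The series describes its samples as paired without saying how. Deviations from the group means were correlated between libraries of different groups. Libraries with the same number had a mean correlation of -0.0099 over 63 pairs, with 8 above 0.1. Those with different numbers had a mean of 0.0049 over 126 pairs, with 24 above 0.1. For 5 of 21 libraries, the mean correlation was highest with the libraries of their own number. The numbers were therefore not taken as pairs. With a replicate block the members called were 8, 7, 9, 7, 5 and 5 in the stage comparisons with 2 lines, 8, 10 and 9 for EpiSCs, 1, 6 and 4 between the lines and 0, 2 and 5 for the line differences, the same counts as without it.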
